A study of Mus musculus with 8 samples.

Results

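Metallothioneins and antioxidant enzymes were followed in rib cartilage cells that lacked the microRNA gene *Mir140*. The set held 10 genes chosen by name, the metallothioneins *Mt1* and *Mt2*, the superoxide dismutases *Sod1*, *Sod2* and *Sod3*, and the stress-inducible enzymes *Hmox1*, *Nqo1*, *Gclm*, *Txnrd1* and *Srxn1*. All 10 were found among the 52325 gene identifiers of the deposited files, and all 10 were expressed enough to be tested, as were 17177 genes in total (0.5 TPM or more in 4 or more of the 8 libraries). TPM is an abundance scaled for transcript length and for the total of the library, so levels can be compared between genes.

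Chondrocytes came from the costal cartilage of mice 7 d old. One group was wild-type (n = 4) and the other homozygous for a CRISPR/Cas9 deletion of *Mir140* (*Mir140*-null, n = 4), and both had a C57BL/6J background. Both lines descend from founders whose background combined C57BL/6 with CBA/ca before breeding to C57BL/6J. The ribs of every animal were digested with collagenase, and the labels name no treatment. The labels do not say how many animals gave each sample, so p-values measure the spread between these samples only.

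Metallothioneins are small cysteine-rich proteins that bind zinc and copper and can also react with oxidants. Their genes are switched on by metals through the factor MTF1, and by glucocorticoids. Superoxide dismutases turn superoxide into hydrogen peroxide, which peroxiredoxins and glutathione peroxidases then remove with electrons from thioredoxin and glutathione. The transcription factor NRF2, encoded by *Nfe2l2*, drives many of the enzymes of these systems through a DNA sequence called the antioxidant response element, while KEAP1 keeps NRF2 low and BACH1 occupies the same elements. Cartilage has no blood vessels, and its cells live at low oxygen.

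The set moved in both directions. *Sod2*, *Txnrd1* and *Gclm* were higher in *Mir140*-null chondrocytes, by 3.42-, 2.40- and 2.12-fold as ratios of mean TPM. *Mt1*, *Mt2* and *Srxn1* were lower, by 2.48-, 1.65- and 1.56-fold. *Sod1*, *Sod3*, *Hmox1* and *Nqo1* did not pass the test, which was limma on log2(TPM + 1) with Benjamini-Hochberg adjustment over all 17177 genes at an adjusted p of 0.05. By this rule 16.9% of all tested genes were called, 10.5% higher and 6.40% lower, against 3 and 3 of these 10 genes. The libraries of the genotypes did not overlap for 7 of the 10, compared with 25.9% of all tested genes. The members were chosen with earlier results of these data known, so these shares do not test the set as a family. The direction of calls over all genes depended on scaling, with 62.0% of the called genes higher as deposited and 50.9% after median-ratio scaling, but the members' calls were still 3 higher and 3 lower under that scaling.

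**Figure D1:**
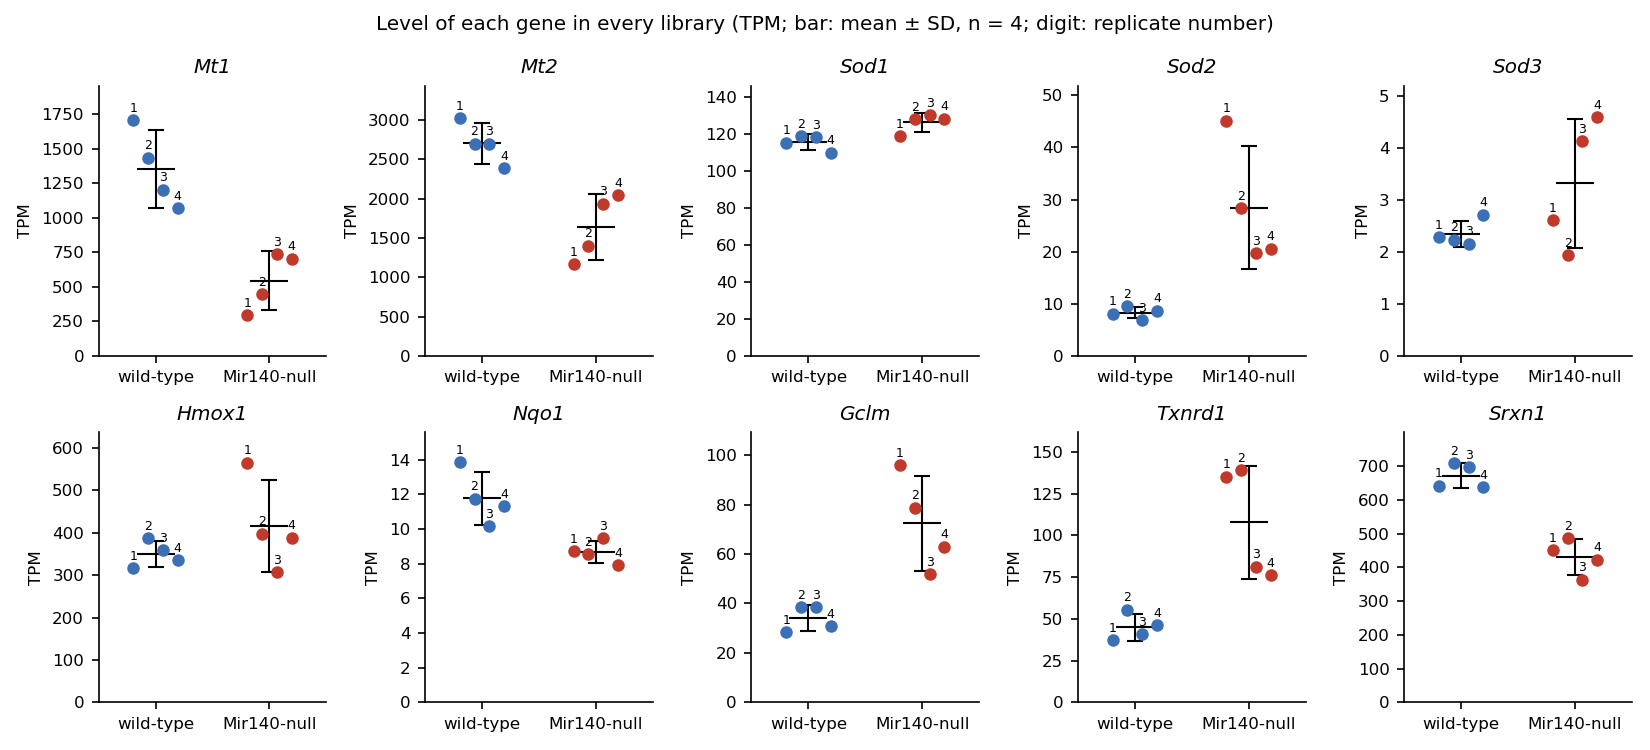
Level in TPM (vertical axes, each from 0) of the 10 genes in every library, with wild-type in blue and *Mir140*-null in red, the replicate number beside each point, and the mean ± SD (n = 4) in black. The groups do not overlap for *Mt1*, *Mt2*, *Sod2*, *Nqo1*, *Gclm*, *Txnrd1* and *Srxn1*, and overlap for *Sod1*, *Sod3* and *Hmox1*.

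The libraries themselves differed in ways that touch these values. *Mir140*-null libraries 1 and 2 had low levels of several transcripts of the perichondrium, the fibroblast layer around cartilage. The summed level of 8 perichondrial and fibroblast markers was 1015 and 1201 TPM in these libraries, 5851 and 4469 TPM in *Mir140*-null libraries 3 and 4, and 3670 to 6595 TPM in wild-type. *Col1a1*, the main collagen of fibrous tissue and bone, was at 47.8 and 50.1 TPM in *Mir140*-null libraries 1 and 2 and at 793 to 1544 TPM in wild-type. *Col1a2*, *Col3a1*, *Postn*, *Thy1* and, less so, *Dcn* were also lowest in these libraries. The list did not fall as a whole, as *Pdgfra* was at 34.5 and 36.5 TPM there and at 11.8 to 19.8 TPM in wild-type. *Lum* was at 131 and 142 TPM there and at 132 to 178 TPM in wild-type. In bulk RNA, fewer cells of a type and less RNA per cell cannot be told apart. Mitochondrially encoded transcripts took 4.06% to 6.99% of TPM in wild-type libraries and 8.41% to 10.1% in *Mir140*-null libraries, and with these genes removed from the totals 3 members were again called higher and 3 lower. Chondrocyte markers were abundant in all 8 libraries, summing to 65491 to 82194 TPM in wild-type libraries and 49354 to 68947 TPM in *Mir140*-null. *Mir140* was listed at 0 in all libraries except *Mir140*-null library 2, at 8.86 TPM, in a library type that captures poly(A) RNA, so its level does not check the labels. Read depth cannot be had from TPM. Of the stretches of 75 bases in the longest transcript, 36 of *Sod1* (0.924%) and 27 of *Sod2* (0.467%) also occur in other genes, and the other 8 members shared none.

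*Mt1* and *Mt2* were among the most abundant transcripts of these cells. The genes lie side by side on chromosome 8, *Mt2* at chr8:94172664-94173568 and *Mt1* at chr8:94179082-94180327 (GRCm38/mm10, + strand), with 5513 bases between them. Their coding sequences (GENCODE M21) are shown because their cysteine codons, in capitals, are what makes a metallothionein, and because they tell whether reads of the pair can be separated.
Mt1 coding sequence: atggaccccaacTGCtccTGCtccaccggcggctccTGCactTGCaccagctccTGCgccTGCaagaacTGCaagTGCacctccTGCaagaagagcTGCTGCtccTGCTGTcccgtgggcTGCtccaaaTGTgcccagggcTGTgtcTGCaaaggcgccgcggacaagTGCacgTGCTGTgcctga
Mt2 coding sequence: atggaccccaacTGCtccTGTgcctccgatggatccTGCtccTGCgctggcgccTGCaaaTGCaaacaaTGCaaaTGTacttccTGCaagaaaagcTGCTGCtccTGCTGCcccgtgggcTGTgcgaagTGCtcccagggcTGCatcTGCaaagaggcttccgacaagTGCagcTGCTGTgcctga
Each holds 186 bases, and 20 of the 61 amino acid codons (32.8%) encode cysteine. The pair is identical at 148 of 186 bases (79.6%), but the longest run shared by their transcripts is 20 bases and no stretch of 75 bases, the read length, occurs in both.

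*Mt1* was at 1705, 1435, 1202 and 1067 TPM in wild-type libraries 1 to 4. In *Mir140*-null libraries 1 to 4 it was at 295, 445, 737 and 702 TPM. The lowest wild-type library was thus above the highest *Mir140*-null library, and *Mir140*-null libraries 1 and 2 were farther from wild-type than libraries 3 and 4. Means were 1352 ± 280 TPM in wild-type libraries and 545 ± 212 TPM in *Mir140*-null (SD, n = 4), and the log2 fold change was -1.38 ± 0.30 (SE, limma adjusted p = 0.0216). By mean level *Mt1* ranked 101 among all genes in wild-type and 254 in *Mir140*-null. The call was lost without wild-type library 1 (adjusted p = 0.054), without wild-type library 3 (0.051) and without *Mir140*-null library 2 (0.060), with log2 fold changes over all 8 such fits from -1.56 to -1.12.

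*Mt2*, the more abundant of the pair, was at 3028, 2700, 2699 and 2385 TPM in wild-type. In *Mir140*-null it was at 1164, 1401, 1937 and 2043 TPM. Here too the groups did not overlap, and the same *Mir140*-null libraries 1 and 2 were the lowest. Means were 2703 ± 263 and 1636 ± 422 TPM (SD, n = 4). The log2 fold change was -0.76 ± 0.19 (SE, adjusted p = 0.0318), and the rank went from 50 to 83. This call was the least stable of the 6. It held in 2 of the 8 fits that leave out 1 library and was lost without any of the 4 wild-type libraries and without *Mir140*-null library 1 or 2, with adjusted p-values over the 8 fits from 0.028 to 0.082.

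The balance of the pair also differed. The ratio of *Mt1* to *Mt2* was 0.563, 0.532, 0.445 and 0.447 in wild-type and 0.253, 0.317, 0.380 and 0.344 in *Mir140*-null libraries, without overlap. Together the pair took 0.406% ± 0.053 of all TPM in wild-type libraries and 0.218% ± 0.063 in *Mir140*-null (SD, n = 4). This ratio and those below were described without a test.

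The promoters of the pair are shown because the genes moved together, with the core of the metal response element (TGCACNC or TGCGCNC on either strand) in capitals. Each window holds 250 bases before and 50 after a RefSeq start (GRCm38.p6), chr8:94178839-94179138 for *Mt1* and chr8:94172368-94172667 for *Mt2*, both on the + strand.
Mt1 promoter: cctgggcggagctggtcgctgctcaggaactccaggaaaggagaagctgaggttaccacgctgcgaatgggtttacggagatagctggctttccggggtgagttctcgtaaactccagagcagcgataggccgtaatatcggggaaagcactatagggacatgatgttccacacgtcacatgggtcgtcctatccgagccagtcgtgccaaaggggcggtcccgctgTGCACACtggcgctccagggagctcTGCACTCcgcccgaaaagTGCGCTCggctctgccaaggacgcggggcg
Mt2 promoter: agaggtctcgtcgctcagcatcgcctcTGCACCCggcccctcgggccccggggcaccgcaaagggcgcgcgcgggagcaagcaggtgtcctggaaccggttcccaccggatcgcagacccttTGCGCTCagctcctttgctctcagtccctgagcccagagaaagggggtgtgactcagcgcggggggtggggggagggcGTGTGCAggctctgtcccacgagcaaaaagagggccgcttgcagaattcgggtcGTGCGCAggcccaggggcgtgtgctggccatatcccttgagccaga
The *Mt1* window held 3 cores and the *Mt2* window held 4. In both windows some cores lay after the start used. Bases outside the windows were not searched, so these counts are not totals for either promoter. Among 32851 promoter windows of this length 25.7% held at least 1 and 1.97% held at least 3. A match of letters does not show that a factor binds. *Mtf1*, which encodes the factor that reads this element, was at 7.66 ± 0.86 TPM in wild-type libraries and 7.21 ± 1.07 TPM in *Mir140*-null (log2 fold change -0.08, adjusted p = 0.720), with overlapping groups.

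The glucocorticoid list was examined since metallothioneins respond to these hormones. Of its 10 genes, all tested, 1 was called higher, 2 lower and 7 not at all, beside 10.5% higher and 6.40% lower of all genes. The median log2 fold change was 0.04 beside -0.01 over all genes. The list summed to 606 to 741 TPM in wild-type libraries and 431 to 578 TPM in *Mir140*-null, without overlap, a sum in which abundant genes weigh most. The clock gene *Per1* fell from 118 ± 30 to 59.9 ± 11.4 TPM (adjusted p = 0.0217), and the phosphatase gene *Dusp1* fell from 221 ± 15 to 136 ± 28 TPM (adjusted p = 0.0226). *Lcn2*, which encodes the siderophore-binding protein lipocalin-2, rose from 8.87 ± 2.88 to 28.1 ± 12.7 TPM (adjusted p = 0.0201). *Per1* and *Lcn2* were each called in 5 of the 8 fits that leave out 1 library and *Dusp1* in 4. None of these calls held without *Mir140*-null libraries 1 and 2, with adjusted p-values of 0.082, 0.088 and 0.062.

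*Sod2* encodes the manganese superoxide dismutase of mitochondria and lies at chr17:13006846-13040063. It was at 8.09, 9.60, 6.90 and 8.67 TPM in wild-type. In *Mir140*-null it was at 45.2, 28.3, 19.7 and 20.6 TPM. Every *Mir140*-null library was above every wild-type library, with library 1 the highest. Means were 8.32 ± 1.13 and 28.4 ± 11.8 TPM (SD, n = 4), and the log2 fold change of 1.59 ± 0.26 (SE, adjusted p = 0.0098) was the largest rise of the 10 genes. The call held in all 18 alternative analyses, and was 1.19 (adjusted p = 0.029) without *Mir140*-null libraries 1 and 2.

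*Sod1*, the cytosolic copper and zinc enzyme at chr16:90220754-90226329, was the most abundant of the 3 dismutases. Its level was 115, 119, 118 and 110 TPM in wild-type libraries and 119, 128, 130 and 128 TPM in *Mir140*-null libraries. The lowest *Mir140*-null library lay within the wild-type range. The log2 fold change was 0.13 (95% confidence interval -0.05 to 0.31, adjusted p = 0.286), and its sign turned to -0.041 after quantile normalization. *Ccs*, the chaperone that loads copper into this enzyme, fell from 9.66 ± 0.88 to 5.99 ± 0.86 TPM (log2 fold change -0.61, adjusted p = 0.0203). The *Ccs* call held in 6 of the 8 fits that leave out 1 library and not without *Mir140*-null libraries 1 and 2 (adjusted p = 0.109).

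*Sod3*, the secreted dismutase at chr5:52363791-52371418, was low, at 2.16 to 2.72 TPM in wild-type and at 2.62, 1.94, 4.13 and 4.59 TPM in *Mir140*-null. *Mir140*-null libraries 3 and 4 were above wild-type and library 2 below it. Its log2 fold change of 0.32 had an interval from -0.17 to 0.82 (adjusted p = 0.325). It was 0.68 (adjusted p = 0.057) without *Mir140*-null libraries 1 and 2, 0.49 (0.135) without library 2 alone and 0.18 (0.566) without library 4, and was called in none of the alternatives that tested it. With *Sod1* near its wild-type level, *Sod2* made up 5.42% to 7.35% of the summed TPM of the 3 dismutases in wild-type and 27.1%, 17.9%, 12.8% and 13.4% in *Mir140*-null libraries 1 to 4.

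The 5 stress-inducible enzymes did not move as a block. *Gclm*, the modifier subunit of the enzyme that starts glutathione synthesis (chr3:122245557-122270732), was at 28.5, 38.4, 38.6 and 30.9 TPM in wild-type. In *Mir140*-null it was at 95.9, 78.7, 51.9 and 63.0 TPM, above all wild-type libraries and highest in libraries 1 and 2. Means rose from 34.1 ± 5.2 to 72.4 ± 19.1 TPM (SD, n = 4; log2 fold change 1.04 ± 0.20 SE, adjusted p = 0.0156). *Gclc*, the catalytic subunit of the same enzyme, was at 12.9 ± 1.4 and 9.16 ± 1.43 TPM and was not called (adjusted p = 0.059). Its groups did not overlap, at 11.1 to 14.1 TPM in wild-type and 7.52 to 10.6 TPM in *Mir140*-null libraries. The ratio of *Gclm* to *Gclc* was 2.03 to 3.47 in wild-type and 6.90 to 9.03 in *Mir140*-null libraries. With *Gclm* higher and *Gclc* lower in every *Mir140*-null library, this ratio had to separate the genotypes.

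*Txnrd1*, the cytosolic thioredoxin reductase (chr10:82833951-82897712), was at 37.1, 55.5, 40.8 and 46.2 TPM in wild-type. Its *Mir140*-null levels were 135, 139, 81.3 and 76.0 TPM, again with libraries 1 and 2 the highest and all 4 above wild-type. Means rose from 44.9 ± 8.0 to 107.8 ± 33.8 TPM (SD, n = 4; log2 fold change 1.21 ± 0.23 SE, adjusted p = 0.0158). The calls of *Gclm* and *Txnrd1* held in all 8 fits that leave out 1 library.

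*Srxn1* encodes sulfiredoxin, which restores over-oxidized peroxiredoxins, and lies at chr2:152105516-152111376. It was abundant in wild-type, at 642, 709, 697 and 638 TPM. In *Mir140*-null it was at 450, 486, 363 and 423 TPM. The groups were well apart, and this was the only called member in which *Mir140*-null libraries 1 and 2 were nearer to wild-type than libraries 3 and 4. Means fell from 671 ± 37 to 431 ± 52 TPM (SD, n = 4; log2 fold change -0.65 ± 0.11 SE, adjusted p = 0.0106), a call that held in all 18 alternatives. The ratio of *Srxn1* to *Txnrd1* was 12.8 to 17.3 in wild-type libraries and 3.33 to 5.56 in *Mir140*-null libraries. As *Srxn1* was lower and *Txnrd1* higher in every *Mir140*-null library, this ratio had to separate the genotypes.

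*Gclm* and *Srxn1* changed in opposite directions and are shown with the core of the antioxidant response element (TGACNNNGC on either strand) in capitals. The windows are chr3:122245307-122245606 and chr2:152105274-152105573, both on the + strand of GRCm38.p6.
Gclm promoter: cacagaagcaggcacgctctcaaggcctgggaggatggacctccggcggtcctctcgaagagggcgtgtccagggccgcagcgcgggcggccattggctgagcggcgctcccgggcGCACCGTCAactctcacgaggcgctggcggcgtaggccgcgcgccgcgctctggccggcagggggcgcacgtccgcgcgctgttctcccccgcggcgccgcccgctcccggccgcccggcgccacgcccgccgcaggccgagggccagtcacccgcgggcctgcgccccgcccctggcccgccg
Srxn1 promoter: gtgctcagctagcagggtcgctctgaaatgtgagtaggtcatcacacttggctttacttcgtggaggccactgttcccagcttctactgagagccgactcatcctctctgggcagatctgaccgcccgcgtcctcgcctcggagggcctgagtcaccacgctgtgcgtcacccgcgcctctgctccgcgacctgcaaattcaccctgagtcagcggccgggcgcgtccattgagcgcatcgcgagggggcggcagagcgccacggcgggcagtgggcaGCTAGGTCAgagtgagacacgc
Each held 1 core, as did windows of *Mt2*, *Sod1* and 1 of the 3 RefSeq starts of *Txnrd1*, while those of *Mt1*, *Sod2* and *Nqo1* held none. Bases outside these windows were not searched, so a window without the core does not mean that the gene lacks the element. The core was in 12.4% of the 32851 windows. In *Gclm* it overlapped 1 of 3 metal response cores. In *Srxn1* the core lay after the start. Close variants of the core, such as TGAGTCAGC in the *Srxn1* window, were not searched. The core as searched was present in windows of genes that rose, that fell and that were not called. Its part in these levels was not tested. *Sod3* and *Hmox1* had no entry in the promoter table.

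*Nqo1*, the quinone reductase, was at 13.8, 11.8, 10.1 and 11.3 TPM in wild-type and at 8.73, 8.56, 9.45 and 7.89 TPM in *Mir140*-null libraries. The ranges did not overlap, yet the difference was not called (log2 fold change -0.40, 95% confidence interval -0.68 to -0.11, adjusted p = 0.063). With only genes of at least 5 TPM on average in the test, the adjusted p was 0.043. *Nqo1* (chr8:107388225-107403206, - strand) lies 148 kb from *Mir140*, and *Mt1* 13371 kb and *Hmox1* 32451 kb from it on the same chromosome. Whether CBA/ca alleles linked to the deletion remained there was not tested.

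*Hmox1*, the enzyme that breaks down heme (chr8:75093621-75100589), was at 317, 387, 359 and 335 TPM in wild-type. In *Mir140*-null it was at 566, 398, 308 and 388 TPM, and only library 1 stood far above the wild-type range. The log2 fold change was 0.22 (95% confidence interval -0.19 to 0.62, adjusted p = 0.421) and -0.013 without *Mir140*-null libraries 1 and 2.

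**Figure D2:**
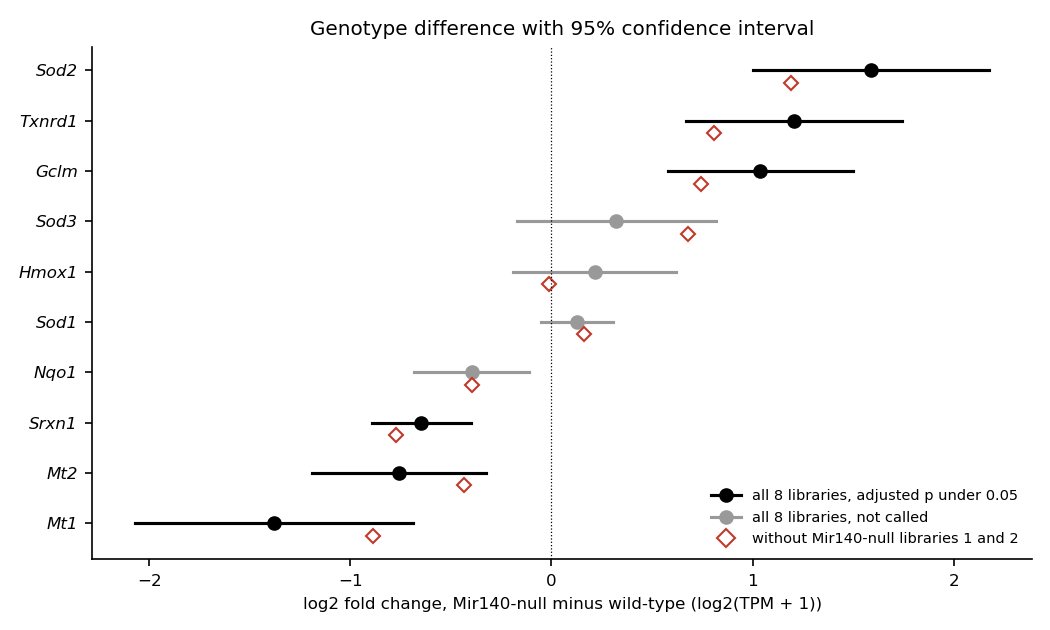
Log2 fold change of *Mir140*-null over wild-type (horizontal axis, on log2(TPM + 1)) for the 10 genes, with circles and bars for the estimate and 95% confidence interval of all 8 libraries (black for an adjusted p under 0.05, grey for not called) and open diamonds for the estimate without *Mir140*-null libraries 1 and 2. *Sod2* (1.59) and *Mt1* (-1.38) are at the ends, and without those libraries the estimates of *Mt1*, *Mt2*, *Gclm*, *Txnrd1*, *Sod2* and *Hmox1* lie nearer to 0.

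Leaving out *Mir140*-null libraries 1 and 2 kept the sign of all 6 called members but only *Sod2* and *Srxn1* as calls (-0.77 for *Srxn1*, adjusted p = 0.031). *Mt1* was then at -0.89 (adjusted p = 0.066), *Mt2* at -0.44 (0.088), *Gclm* at 0.74 (0.073) and *Txnrd1* at 0.81 (0.063), from 4 wild-type and 2 *Mir140*-null libraries, in which 357 genes were called higher and 210 lower overall. In 5 of the 6 called members both libraries were farther from wild-type than libraries 3 and 4, compared with 54.2% of all called genes.

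**Figure D3:**
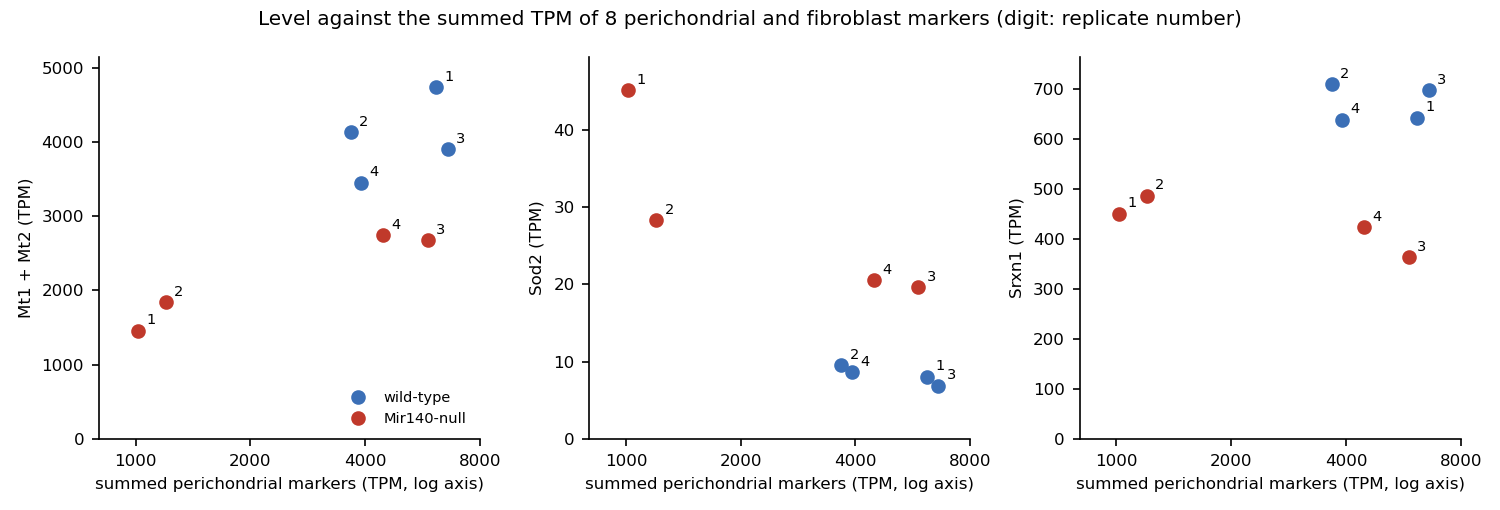
Level in TPM of *Mt1* plus *Mt2*, of *Sod2* and of *Srxn1* (vertical axes, from 0) against the summed TPM of 8 perichondrial and fibroblast markers (horizontal log axes) in each library, with wild-type in blue, *Mir140*-null in red and the replicate number beside each point. *Mir140*-null libraries 3 and 4 have marker sums within the wild-type range of 3670 to 6595 TPM. They lie apart from wild-type in all 3 panels. *Mir140*-null libraries 1 and 2, at 1015 and 1201 TPM, are farther away for *Mt1* plus *Mt2* and *Sod2* but not for *Srxn1*. The part of these markers in the levels was not tested.

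Markers of other cell types were read beside the members. Of 10 macrophage markers 4 were tested, with *Cd14* called higher and *Lyz2* lower, and the list summed to 35.6 to 61.6 TPM in wild-type libraries and 69.8 to 133 TPM in *Mir140*-null. The defining macrophage genes *Adgre1* and *C1qa* averaged 0.077 and 0.027 TPM in wild-type libraries and 0.064 and 0.022 TPM in *Mir140*-null. *Cd68* averaged 29.0 TPM in wild-type libraries and 22.8 TPM in *Mir140*-null and was not called. *Mrc1*, too low to be tested, averaged 0.42 and 0.16 TPM. *Cd14* alone averaged 16.9 and 75.6 TPM, and the other 9 markers summed to 22.1 to 40.2 TPM in wild-type libraries and 17.2 to 31.2 TPM in *Mir140*-null, with overlap. Of 8 neutrophil markers 4 were tested and *Camp* was called higher, with sums of 2.22 to 6.40 and 7.29 to 10.3 TPM. Skeletal muscle markers summed to 69.6 to 107 TPM in wild-type libraries and 35.6 to 60.4 TPM in *Mir140*-null, with 1 of 5 tested called lower. Erythroid sums were 646 to 1854 and 257 to 1725 TPM, endothelial sums 16.3 to 39.9 and 12.6 to 54.2 TPM, adipocyte sums 30.4 to 71.4 and 28.4 to 81.0 TPM, and osteoblast sums 110 to 173 and 92.2 to 193 TPM, and limma called no gene of these 4 lists, with 1 osteoblast gene lower at an unadjusted p under 0.05. Of the perichondrial list 1 gene (*Pdgfra*) was called higher and 1 (*Dcn*) lower. Of 12 chondrocyte markers 1 (*Acan*) was called higher and 4 lower. Beside these marker counts stand the shares of all tested genes, 10.5% called higher and 6.40% lower. The part of these markers in the members' values was not tested.

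Some regulators of the pathway moved and others did not. *Nfe2l2*, encoding NRF2, was at 29.9, 34.2, 32.5 and 34.8 TPM in wild-type and at 59.2, 44.1, 52.8 and 54.5 TPM in *Mir140*-null, without overlap. Its log2 fold change was 0.66 ± 0.11 (SE, adjusted p = 0.0119), it was called in all 8 fits that leave out 1 library, and it was 0.69 (adjusted p = 0.037) without *Mir140*-null libraries 1 and 2. *Bach1*, encoding the repressor at the same elements, was at 19.3, 20.7, 19.96 and 21.9 TPM in wild-type and at 5.97, 9.13, 13.0 and 16.3 TPM in *Mir140*-null. Its fall of -0.91 on the log2 scale was just past the threshold (adjusted p = 0.0489), held in 1 of the 8 fits that leave out 1 library, and was -0.46 (adjusted p = 0.104) without *Mir140*-null libraries 1 and 2. *Keap1* was at 6.35 ± 1.32 and 6.37 ± 1.32 TPM (log2 fold change 0.01, adjusted p = 0.983).

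The *Mir140* hairpin (RefSeq, GRCm38.p6 chr8:107551244-107551313, + strand) and the mature 3p strand are shown with the seed regions in capitals, which in the hairpin cover the 5p seed and both 3p seeds, since this locus was deleted.
Mir140 hairpin: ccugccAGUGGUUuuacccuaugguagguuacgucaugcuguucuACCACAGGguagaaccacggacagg
mmu-miR-140-3p: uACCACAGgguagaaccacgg
The sequence complementary to the 5p seed was searched in the longest 3′ untranslated region of the 10 members and of *Nfe2l2*, *Keap1*, *Bach1* and *Mtf1*. It occurred once each in *Gclm*, *Bach1* and *Mtf1*, and these sites are shown in capitals with 10 bases on each side.
Gclm site: cgctcacaggAACCACTgtattctaat
Bach1 site: actgcaataaAACCACTgaacttatat
Mtf1 site: ggccacagggAACCACTatcagcatct
Among the members *Gclm* was the only gene with this 7-base site, beside 11.5% of 12982 tested genes, and *Nqo1* was the only one with a site for 1 of the 3p seeds, beside 20.5%. No member held a site for the other 3p seed, found in 22.0%. A shorter form of the 5p site, in which 6 of these bases are followed by A, occurred once each in *Srxn1* and *Nfe2l2* and at 2 places in *Mtf1*, of which 1 lies within the site shown, beside 6.54% of genes. The study's lists of predicted targets are of human genes and were matched here by gene symbol, with *Mt1* matched to the human *MT1* genes. None of the 10 members was on these lists, while *Nfe2l2* and *Bach1* were on the list for miR-140-5p. Of these 5 genes with a site for miR-140-5p, *Gclm* and *Nfe2l2* were higher without the microRNA, *Bach1* and *Srxn1* were lower, and *Mtf1*, with the most sites, was not called.

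Beyond the members, 91 other genes of antioxidant defence and metal handling were read from 7 lists. Of the 82 that were tested, 16 were called higher and 7 lower, beside 10.5% and 6.40% of all genes, with a median log2 fold change of 0.08 beside -0.01. Among the 16, 6 were called in all 8 fits that leave out 1 library and 3 without *Mir140*-null libraries 1 and 2. Among the 7, none held in all 8 such fits and 1 (*Maff*) held without those libraries.

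Glutathione synthesis and supply had the highest median, 0.56, with 4 of 10 genes called higher and 1 lower, beside 10.5% and 6.40% of all genes. *Gsr*, which reduces oxidized glutathione, rose from 9.75 ± 2.55 to 34.4 ± 12.5 TPM (log2 fold change 1.68 ± 0.28 SE, adjusted p = 0.0102). *Pgd*, an NADPH-producing enzyme of the pentose phosphate pathway, rose from 11.5 ± 1.1 to 28.5 ± 7.0 TPM (1.21 ± 0.17, adjusted p = 0.0073). *Slc7a11*, the cystine importer, was low but rose in every *Mir140*-null library, to 5.96, 5.89, 5.64 and 5.60 TPM from 1.51 to 3.07 TPM (adjusted p = 0.0099). All 3 were called in every fit that leaves out 1 library, and *Gsr* (adjusted p = 0.047) and *Pgd* (0.031) also without *Mir140*-null libraries 1 and 2, where *Slc7a11* was not (0.066). *Ggct* also rose (adjusted p = 0.0349), whereas *Chac1*, which breaks down glutathione, fell from 143 ± 8 to 91.8 ± 23.5 TPM (adjusted p = 0.0423); these calls held in 1 and 2 of the 8 fits.

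Of 19 peroxiredoxins, thioredoxins and related genes, 3 were called higher and none lower by limma, beside 10.5% and 6.40% of all genes. At an unadjusted p under 0.05 there were 4 higher and 2 lower, and the median was 0.07. *Txn1*, the substrate of the enzyme made by *Txnrd1*, rose from 104 ± 21 to 169 ± 18 TPM (adjusted p = 0.0232), *Txnrd3* from 3.66 ± 0.92 to 6.85 ± 0.56 TPM (0.0216), and the glutaredoxin *Glrx* from 24.9 ± 3.0 to 40.4 ± 7.9 TPM (0.0309). They held in 4, 7 and 2 of the 8 fits that leave out 1 library. Catalase, *Cat*, was at 13.9 ± 1.4 and 9.75 ± 3.29 TPM and was not called (adjusted p = 0.159).

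Of 14 tested glutathione peroxidases and transferases 1 was called higher and 2 lower, beside 10.5% and 6.40% of all genes. The list median was -0.04. *Gpx4*, which reduces lipid peroxides, rose from 181 ± 11 to 238 ± 20 TPM (adjusted p = 0.0295). *Gpx8*, of the endoplasmic reticulum, fell from 71.4 ± 9.6 to 42.6 ± 12.7 TPM (0.0432), and *Gstm1*, a glutathione transferase, fell from 20.7 ± 3.0 to 13.3 ± 2.7 TPM (0.0428). These calls held in 2, 1 and 2 of the 8 fits.

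Iron and heme genes were mixed, with 2 of 10 called higher and 1 lower, beside 10.5% and 6.40% of all genes. The list median was -0.24. *Tfrc*, the transferrin receptor, fell from 77.6 ± 12.3 to 42.5 ± 10.2 TPM (adjusted p = 0.0261). *Slc11a2*, an iron importer, rose from 34.9 ± 4.5 to 66.5 ± 14.0 TPM (0.0144), and *Ireb2*, an iron-sensing RNA-binding protein, from 10.5 ± 1.2 to 15.2 ± 0.5 TPM (0.0243). They were called in 4, 8 and 3 of the 8 fits. Neither ferritin subunit was called. *Fth1* was at 649 ± 76 and 1173 ± 515 TPM (adjusted p = 0.117), with overlapping groups. *Ftl1* was at 918 ± 113 and 720 ± 31 TPM (0.055), without overlap. The ratio of *Fth1* to *Ftl1* was 0.519 to 0.920 in wild-type. It was 2.63, 1.95, 0.866 and 1.18 in *Mir140*-null libraries, so it was highest in libraries 1 and 2.

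**Figure D4:**
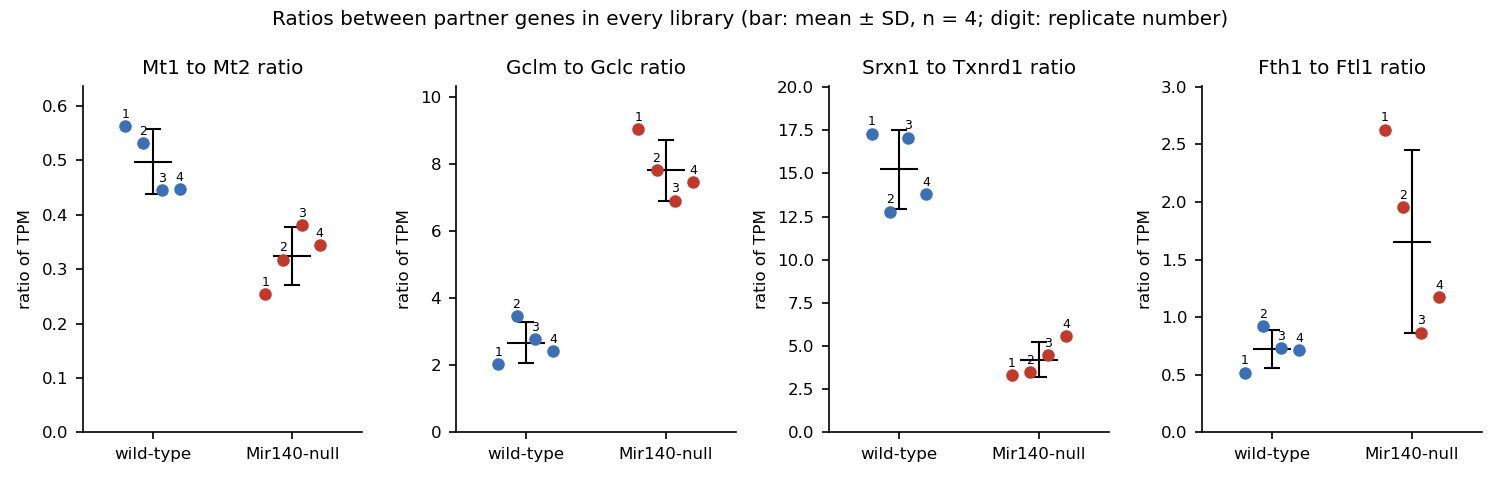
Ratios of TPM (vertical axes, from 0) of *Mt1* to *Mt2*, *Gclm* to *Gclc*, *Srxn1* to *Txnrd1* and *Fth1* to *Ftl1* in every library, with wild-type in blue, *Mir140*-null in red, the replicate number beside each point and the mean ± SD (n = 4) in black. The first 3 ratios do not overlap between genotypes. For *Gclm* to *Gclc* and *Srxn1* to *Txnrd1* this follows from the separate levels of the genes. The ferritin ratio overlaps, with *Mir140*-null library 3 at 0.866 and wild-type library 2 at 0.920.

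Among zinc and copper genes 14 of 15 were tested, and 2 were called higher and 1, *Ccs*, lower. Of all genes 10.5% were called higher and 6.40% lower. The list median was 0.34. The zinc transporter genes *Slc30a5* (21.9 ± 3.1 to 31.7 ± 4.5 TPM, adjusted p = 0.0457) and *Slc39a13* (69.3 ± 7.8 to 95.3 ± 6.8 TPM, adjusted p = 0.0292) rose, and each was called in 1 of the 8 fits that leave out 1 library. *Slc30a1*, a zinc exporter known to be switched on by MTF1 like the metallothioneins, was named after its values were seen. It was at 13.7, 11.99, 11.04 and 12.3 TPM in wild-type and at 3.36, 3.66, 9.01 and 8.56 TPM in *Mir140*-null libraries. The groups did not overlap, as in 25.9% of all tested genes, and *Mir140*-null libraries 1 and 2 were lowest. It was not called (adjusted p = 0.054), and the part of MTF1 was not tested. Of the 12 regulators 4 were called higher and 2 lower, with a median of -0.04. Besides *Nfe2l2* and *Bach1*, the NRF2 relative *Nfe2l1* rose from 142 ± 23 to 236 ± 26 TPM (adjusted p = 0.0157), the autophagy receptor *Sqstm1*, which binds KEAP1, from 2237 ± 312 to 3955 ± 1004 TPM (0.0291), and *Hif1a*, the low-oxygen factor, from 256 ± 34 to 384 ± 27 TPM (0.0169). *Maff*, a small MAF partner of NRF2 and BACH1, fell from 132 ± 7 to 93.7 ± 16 TPM (0.0354). These 4 were called in 8, 3, 6 and 1 of the 8 fits. Of 10 oxidant-producing enzymes only 3 were expressed enough to be tested, and limma called none, with none at an unadjusted p under 0.05 either. The catalytic NADPH oxidase gene of phagocytes, *Cybb*, averaged 0.044 TPM in wild-type libraries and 0.034 TPM in *Mir140*-null.

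**Figure D5:**
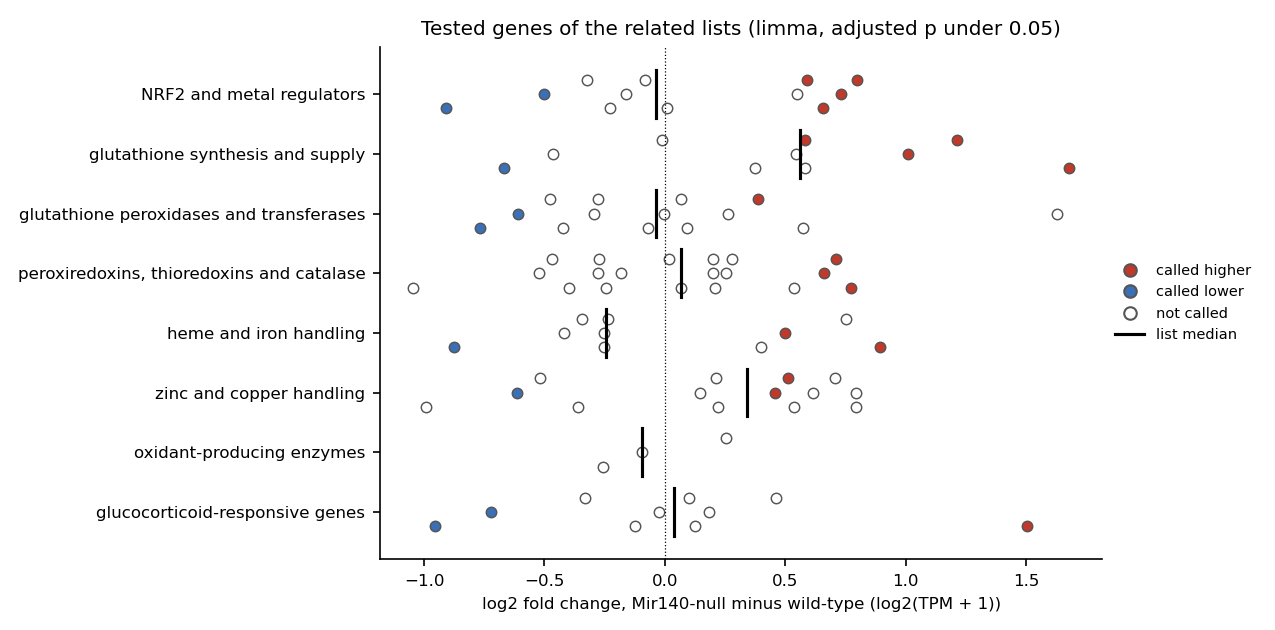
Log2 fold change of *Mir140*-null over wild-type (horizontal axis) for each tested gene of 8 related lists, in red for genes called higher, blue for genes called lower and white for genes not called, with the list median as a black line. Every list that holds called genes except the peroxiredoxins and thioredoxins has them on both sides of 0, and glutathione synthesis and supply has the highest median, 0.56.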

How the data were processed

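RNA-seq libraries of 4 wild-type and 4 *Mir140*-null chondrocyte samples were assigned to genotypes by their labels. Per the labels, RNA was poly(A)-selected with a stranded kit, sequenced as single-end 75-base reads and quantified with Salmon on mm10. The deposited values are TPM per Ensembl gene, which the authors did not scale between libraries. The Salmon version and the step from transcripts to genes are not given in the sources used here. FastQC 0.11.7 is named in the submitters' processing notes. Depth is unknown from TPM.

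Identifiers listed on several lines (273) carried the same value and were counted once. Symbols and positions came from GENCODE M21, with 99.8% of identifiers matched. log2(TPM + 1) was tested with limma 3.58.1 in R 4.3.3, with genotype as the only term, a mean-variance trend and two-sided p-values, adjusted by Benjamini-Hochberg over the 17177 genes that reached 0.5 TPM in 4 or more libraries; the confidence level of intervals is 95%. The procedure was tested on simulated data with independent noise in each gene. Those data held no shift shared by the genes of a library, so they do not check the calls against such a shift. Members and lists were chosen with earlier results of these data known. All 10 members and *Nfe2l2*, *Keap1*, *Bach1* and *Mtf1* are named, and other list genes where called; *Gclc*, *Cat*, *Fth1*, *Ftl1*, *Cybb*, *Slc30a1* and the markers were named after their values were seen. Promoters and microRNAs were RefSeq sequences. Alternatives were a pseudocount of 0.1, no filter, a mean of at least 5 TPM, median-ratio and quantile scaling, nuclear genes only, a replicate block, 1 residual factor, quality weights and leaving out each library; leaving out *Mir140*-null libraries 1 and 2 was added after the data were seen. Python 3.11.15 with pandas 2.3.3, NumPy 2.4.6 and matplotlib 3.10.9 did the rest.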

Additional observations from a re-analysis of the deposited data

How the results depend on the processing

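Over the 18 alternatives *Sod2* and *Srxn1* were called in all, *Txnrd1* in 17, *Gclm* in 16, *Mt1* in 12 and *Mt2* in 9, and no called member changed sign. *Sod1* turned to -0.041 under quantile normalization and *Hmox1* to -0.013 without *Mir140*-null libraries 1 and 2, and neither was called. Members called higher (3) were 1 without *Mir140*-null libraries 1 and 2, and 3 in each fit that left out 1 library. Members called lower (3) were 1 without a filter, 1 with the replicate block, 1 without *Mir140*-null libraries 1 and 2, and 1 to 3 when 1 library was left out, with 1 without wild-type library 1, wild-type library 3 or *Mir140*-null library 2. The analysis without a filter tested 36617 genes, and those without some libraries had fewer samples.

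Same-numbered samples of the genotypes did not deviate together, with correlations of their deviations of 0.031, 0.016, 0.069 and -0.009, so the numbers were not taken to pair them. With the replicate block 671 genes were called higher and 454 lower, and among the other antioxidant and metal genes 7 and 1. *Sod2* (adjusted p = 0.041), *Txnrd1* (0.043) and *Srxn1* (0.045) were called in it, and *Gclm* (0.054), *Mt1* (0.070) and *Mt2* (0.084) were not.

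Of all genes, 1797 were called higher and 1100 lower. These counts were 977 and 539 without a filter, 357 and 210 without *Mir140*-null libraries 1 and 2, and 779 to 1553 and 419 to 1214 when 1 library was left out, lowest without *Mir140*-null library 2 (779 and 423) and wild-type libraries 3 (793 and 440) and 4 (879 and 419). Genes called lower were 605 with a mean of at least 5 TPM and 2016 with 1 residual factor. With the filter at 5 TPM the median log2 fold change of all genes was 0.11 and 73.1% of calls were higher. Other antioxidant and metal genes called higher (16) were 9 without a filter, 3 without *Mir140*-null libraries 1 and 2, and 7 to 15 when 1 library was left out. Those called lower (7) were 1 without a filter, 11 with a mean of at least 5 TPM, 14 under quantile normalization, 3 with nuclear genes only, 16 with 1 residual factor, 1 without *Mir140*-null libraries 1 and 2, and 0 to 6 when 1 library was left out. The cause of these shifts was not tested. TPM keep no read counts, so counting error at low levels such as those of *Sod3* could not be given.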
